A study of Mus musculus with 12 samples.

Results

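Patterning transcription factors of the Hox, Sox, Pax, sine oculis (*Six4* and relatives), T-box (Tbx), Zic, Dmrt, LIM-homeobox (Lhx), Iroquois (Irx), Pitx, Dlx and Msx families were compared between CTL and *Filip1l*-knockdown tumors. Members were taken by gene symbol, from the genes named for one of these families with a paralog number. This choice was made with earlier results of these data known. Of 118 protein-coding mouse genes with such a symbol, 55 had values among the 15687 genes analysed here, and the other 63 were not analysed here. The lowest mean of any gene with values was 9.28 normalized counts. A member near that level in only 1 group was therefore present through the group where it was higher. This holds for *Pax8*, whose CTL mean was under 9.28, and for *Dmrta1* and *Dlx1*, whose knockdown means were.

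The tumors were grown from mTC11, a mouse lung cancer line. The 6 CTL tumors came from cells with a scrambled control shRNA (shControl in the labels), and the 6 *Filip1l*-knockdown tumors from cells with a lentiviral shRNA against *Filip1l*, a gene the study examined in lung adenocarcinoma. Both kinds of cells were puromycin-selected mixed clones rather than single ones, and which of the study's shRNA sequences the sequenced tumors carried was not given in the sources used here. All hosts were male C57BL6/J mice aged 8 weeks, which received the cells under the skin in Matrigel, and whole tumors, host tissue included, were frozen at 24 days. Reads assigned to genes numbered from 17834745 to 29502069 in CTL tumors and from 25460564 to 32419578 in knockdown tumors, so that 3 reads, taken as the floor of detection, were worth from 2.59 to 4.48 normalized counts. A normalized count is the number of reads of a gene divided by a size factor of its tumor, and it does not correct for gene length. The comparison asked which genes differ in tumors once *Filip1l* is knocked down, and the labels give the 12 tumors as biological replicates. How many transduced cell populations each group was grown from was not given in the sources used here. The p-values therefore measure spread between tumors. Effects of the knockdown cannot be told apart from other differences between the transduced cells. *Filip1l* itself had 2311 ± 211 normalized counts across CTL tumors and 1924 ± 165 in knockdown tumors (SD, n = 6 each; log2 fold change -0.26, limma adjusted p = 0.00998). Of the 8 lung epithelium markers 6 had values, and they summed to 275 to 463 normalized counts across CTL tumors and 403 to 1566 in knockdown tumors. *Napsa*, with the highest means of them, had 244 and 461 (limma adjusted p = 0.00248). *Sftpb* had means of 29.7 and 304 (limma adjusted p = 0.0463), but its values overlapped. They ran from 0.947 to 94.1 in CTL tumors and from 17.6 to 760 in knockdown tumors. *Nkx2-1* was low, with 17.2 and 39.4 (adjusted p = 0.443), as was *Sftpc*, with 9.76 and 29.2 (adjusted p = 0.148).

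Patterning factors bind DNA and give embryonic cells a positional or lineage identity. Hox genes lie in clusters A to D, and their order along a cluster follows the body axis from head to tail. Sox proteins bind through an HMG box and fall into lettered subgroups, Pax proteins bind through a paired domain, T-box and zinc-finger Zic proteins through the domains they are named for, and Dlx, Msx, Irx, sine oculis, Pitx and Lhx proteins through a homeodomain. Many of these genes are silenced in adult tissue by Polycomb complexes and some are transcribed again in tumors. In the lung, *Sox9* marks the growing tips of the embryonic airway, and *Hoxa5* and *Tbx2* act in its mesenchyme.

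The sequence before the transcription start is printed for 3 members that were much lower in knockdown tumors and for the member with the greatest increase, so that their promoters can be read side by side. Each run holds the 250 bases before the RefSeq start on the gene's own strand (build GRCm38.p6), with CG dinucleotides, the sites of DNA methylation, in capitals. *Dmrta1* was read at chr4:89687948-89688197 on the + strand, which lies in an intron of the longer gene model of GENCODE vM21. *Pax6* was read at chr2:105668646-105668895 on the + strand, *Sox11* at chr12:27342719-27342968 on the - strand and *Pax8* at chr2:24475600-24475849 on the - strand, and these windows lie before the first annotated exon.
Dmrta1: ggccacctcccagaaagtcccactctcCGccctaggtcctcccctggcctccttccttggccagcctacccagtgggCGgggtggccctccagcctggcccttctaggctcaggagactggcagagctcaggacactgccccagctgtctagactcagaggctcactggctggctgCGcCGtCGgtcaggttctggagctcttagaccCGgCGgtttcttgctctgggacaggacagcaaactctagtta
Pax6: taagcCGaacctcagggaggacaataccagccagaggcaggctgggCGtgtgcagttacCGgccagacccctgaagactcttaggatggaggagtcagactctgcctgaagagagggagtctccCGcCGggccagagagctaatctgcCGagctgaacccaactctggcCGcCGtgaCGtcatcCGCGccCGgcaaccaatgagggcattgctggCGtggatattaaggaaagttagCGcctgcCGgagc
Sox11: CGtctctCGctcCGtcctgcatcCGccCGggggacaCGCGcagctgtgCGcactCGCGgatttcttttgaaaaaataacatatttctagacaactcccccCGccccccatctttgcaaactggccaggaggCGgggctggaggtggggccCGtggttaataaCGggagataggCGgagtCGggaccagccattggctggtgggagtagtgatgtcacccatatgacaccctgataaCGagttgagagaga
Pax8: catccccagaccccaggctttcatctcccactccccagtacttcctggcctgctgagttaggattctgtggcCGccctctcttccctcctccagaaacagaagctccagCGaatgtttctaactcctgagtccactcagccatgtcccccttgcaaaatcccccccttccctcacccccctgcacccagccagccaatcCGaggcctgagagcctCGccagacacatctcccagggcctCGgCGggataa

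These windows held 7 CG dinucleotides in *Dmrta1*, 15 in *Pax6*, 17 in *Sox11* and 6 in *Pax8*. Over all 32851 promoter windows of the same length, the median was 6 and the quartiles were 2 and 16. Of the 14 members called below, 10 had a window, from 3 CG dinucleotides in *Sox5*, whose window lies inside its annotated span, to 22 in *Dlx1*, whose window overlaps an exon of the gene. Searched on both strands, the CCAAT box (CCAAT) occurred in 6 of these 10 windows. It occurred in 15 of the 32 windows of members, called or not, and in 33.8% of all windows. Of the printed runs it was present in *Pax6*, *Sox11* and *Pax8*. The TATA box (TATAAA), present in 12.4% of all windows, the TCF motif of Wnt signaling (CTTTGAT, 3.21%), the homeodomain core (TAATTA, 4.84%) and the E-box (CACGTG, 6.02%) occurred in 0 of the 10. Such matches describe these letters only and name no bound factor.

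More members were lower than higher in knockdown tumors. A gene was called when its adjusted p was under 0.05 and its absolute log2 fold change over 1 (limma on log2 of the normalized count plus 1, Benjamini-Hochberg adjustment over all 15687 genes). By this rule 14 of the 55 members (25.5%) were called, beside 10.2% of all genes. They were 11 members that fell, beside 3.97% of all genes, and 3 that rose, beside 6.2% of all genes. Members were chosen with earlier results of these data known, so these shares are no measure of an excess. The members that fell were *Dmrta1*, *Pax6*, *Dmrta2*, *Dlx3*, *Sox11*, *Dlx1*, *Irx2*, *Dlx4*, *Sox5*, *Hoxc8* and *Tbx3*, and those that rose were *Pax8*, *Sox6* and *Lhx6*. Whatever the fold, 23 members had an adjusted p under 0.05 (5 higher and 18 lower), beside 41.9% of all genes. The values of the 2 groups did not overlap in 17 members (30.9%), beside 21.5% of all genes, and 13 of these were called. Over the 55 members the median log2 fold change was -0.28 and the median absolute log2 fold change 0.52, against 0.01 and 0.25 over all genes. In whole tumors, fewer cells of a type and less RNA per cell cannot be told apart. The plot of fold changes by family shows the called genes spread over many families.

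**Figure D1:**
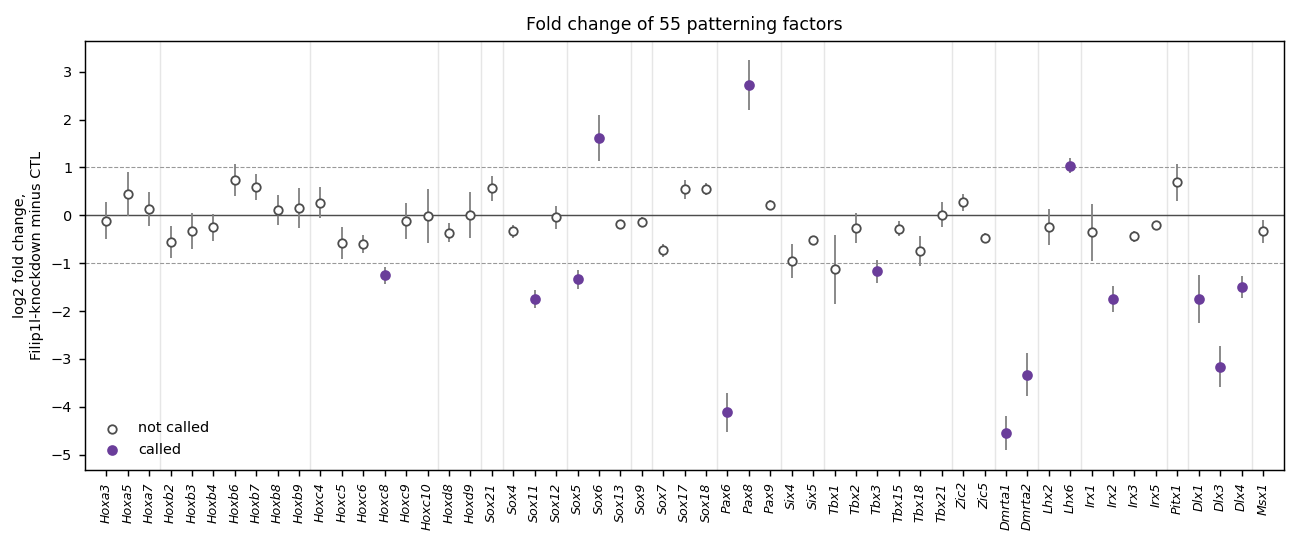
Log2 fold change (*Filip1l*-knockdown minus CTL, with bars of 1 standard error from limma) of the 55 members, ordered by family along the horizontal axis. Filled points are called, and the dashed lines mark a log2 fold change of 1 in either direction. *Dmrta1* lies lowest at -4.55 and *Pax8* highest at 2.72. The Hox genes on the left lie from -0.59 to 0.74, except *Hoxc8* at -1.25.

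Some tumors stood apart from their group. CTL replicate 5 had the fewest reads, 17834745, and knockdown replicate 1 had the highest knockdown value of 21 members, while knockdown replicate 6 had the lowest of 17. Without CTL replicate 5 and knockdown replicate 1, 17 members were called, among them all 14 of the calls above together with *Six4*, *Tbx1* and *Tbx18*. Over all genes the calls rose as well, from 1596 of 15687 to 1732 of 15674. Summed over the 55 members, the values ran from 17485 to 20705 normalized counts across CTL tumors and from 13488 to 16193 in knockdown tumors. These sums were set mainly by *Sox4*, *Sox9* and *Irx3*, which were not called.

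The greatest decreases were those of *Dmrta1*, *Pax6* and *Dmrta2*, genes best known from early neural tissue. *Dmrta1*, a gene of the DM-domain family with a role in olfactory neurons (chromosome 4, 89679436 to 89694772), ran from 64.4 to 165 normalized counts in CTL tumors with a median of 115. Its knockdown values ran from 1.75 to 10.8 with a median of 3.31, and 3 of the 6 knockdown tumors were at or under the floor of 3 reads. The groups did not overlap, and the log2 fold change was -4.55 (SE 0.36, limma adjusted p = 4.75e-07, with SE the standard error of the fold change). With 8 in place of 1 added before the logarithm it was -3.29, and that of *Pax6* -3.78, so the order of *Dmrta1* and *Pax6* depended on that constant. *Dmrta2*, a regulator of the cortical hem on the same chromosome, had 45.7, 111 and 243 normalized counts as its lowest, median and highest CTL values and 3.49, 10.5 and 31.3 in knockdown tumors. It fell by 3.33 on the log2 scale (SE 0.45, adjusted p = 4.33e-05), again with no overlap.

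*Pax6*, the paired-box regulator of eye, forebrain and pancreatic islets (chromosome 2, 105668900 to 105697364), ran from 241 to 672 normalized counts in CTL tumors around a median of 576. Knockdown tumors held 13 to 88.7 with a median of 28, and replicate 1 was the highest of them. The log2 fold change was -4.12 (SE 0.40, limma adjusted p = 2.90e-06). No CTL tumor overlapped with a knockdown tumor. The antisense gene *Pax6os1* overlaps *Pax6*, and whether reads were counted by strand was not given in the sources used here, so reads of the pair cannot be told apart.

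*Zic2* and *Zic5* were not called. These zinc-finger genes of the early nervous system lie head to head on chromosome 14. *Zic2*, a forebrain gene and the more abundant of the pair per kilobase of exon, ran from 274 to 503 normalized counts in CTL tumors with a median of 421 and from 312 to 627 in knockdown tumors with a median of 536. Its groups overlapped, at a log2 fold change of 0.27 (SE 0.19, adjusted p = 0.271). *Zic5* had 210.3 ± 20.3 and 151 ± 9.02 normalized counts (SD, n = 6 each) without overlap, at -0.47 (adjusted p = 0.00108). The log2 ratio of *Zic5* to *Zic2* was -0.93 in CTL tumors and -1.67 in knockdown tumors, a difference of -0.74 (exact two-sided permutation test over tumors, adjusted p = 0.0167 over 27 such pairs). The median abundant gene of chromosome 14 was 0.39 higher in knockdown tumors on the log2 scale. With this chromosome shift removed *Zic2* lay at -0.11 (adjusted p = 0.678) and *Zic5* at -0.85 (adjusted p = 1.75e-05), so the sign of *Zic2* depended on it.

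Among the other Pax genes, *Pax8* rose from a very low level. *Pax8*, a regulator of thyroid and kidney (chromosome 2, 24420560 to 24475599, - strand), had a lowest, median and highest value of 0, 1.38 and 7.58 normalized counts in CTL tumors. In knockdown tumors these were 8.81, 15.6 and 34.9. In 5 of the 6 CTL tumors it was at or under the floor of 3 reads, and all 6 knockdown tumors were above every CTL tumor. The log2 fold change of 2.72 (SE 0.52, limma adjusted p = 0.000843) depended on the constant added before the logarithm, with 1.31 when 8 was added. The noncoding gene *Gm13415* overlaps *Pax8* on the opposite strand, so its few reads may include some of that gene. *Pax9*, a gene of pharyngeal pouches and teeth and the most abundant Pax gene per kilobase of exon, had 1045 ± 97.7 normalized counts across CTL tumors and 1220.0 ± 166 in knockdown tumors (SD, n = 6 each), and it was not called (0.22, adjusted p = 0.0840). Its ranges, 934 to 1151 and 930 to 1406, overlapped.

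**Figure D2:**
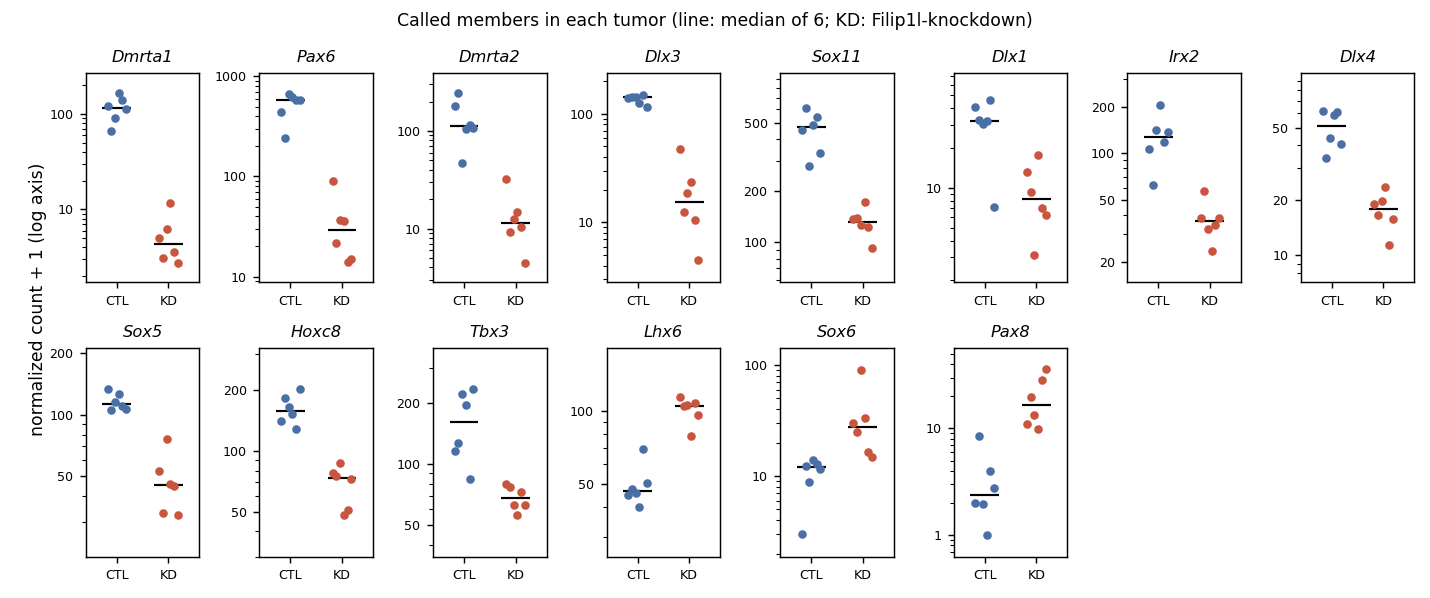
Normalized count plus 1 of the 14 called members in each tumor (log axis), with CTL tumors on the left and *Filip1l*-knockdown tumors (KD) on the right of each panel and a line at the median of 6. The groups are separate in 13 panels, while *Dlx1* has 1 low CTL tumor inside the knockdown range.

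All 3 Dlx genes with values fell. These homeobox genes act in the face, skin and forebrain and lie in linked pairs. *Dlx3*, needed in epidermis, hair and placenta and the most abundant of them per kilobase of exon, ran from 116 to 146 normalized counts in CTL tumors with a median of 140.5. In knockdown tumors it ran from 3.49 to 46.4 with a median of 14.6. Its CTL values were tight and its knockdown values were not, and the log2 fold change was -3.16 (SE 0.42, limma adjusted p = 3.98e-05). Its neighbor *Dlx4*, 15150 bases away on chromosome 11, ran from 33.1 through a median of 50.3 to 61.0 in CTL tumors and from 10.4 through 16.9 to 22.5 in knockdown tumors. It fell by 1.5 (SE 0.23, adjusted p = 0.000153) without overlap. The pair did not fall equally: the log2 ratio of *Dlx3* to *Dlx4* differed by -1.66 between groups (exact permutation test, adjusted p = 0.0213). *Dlx1*, a gene of forebrain interneurons on chromosome 2, had 6.17, 31.1 and 44.8 normalized counts across CTL tumors and 2.09, 7.19 and 16.6 in knockdown tumors. CTL replicate 6 was the low CTL tumor that overlapped the knockdown range, and the log2 fold change was -1.75 (SE 0.50, adjusted p = 0.0113). The antisense genes *Dlx4os* and *Dlx1as* overlap these 2 genes. Of the 6 skin epidermis markers with values, *Krt5* and *Krt14*, which make up most of the sum, lay at 0.07 and 0.35 (adjusted p = 0.921 and 0.437) and *Krt10* at -0.49 (adjusted p = 0.0393). *Lor*, a protein of the outermost epidermis, fell by 1.94 on the log2 scale without overlap, with 86.6 ± 19.2 and 24.4 ± 15.1 normalized counts (SD, n = 6 each; adjusted p = 0.000195). The sums, 1193 to 4025 in CTL tumors and 1562 to 3800 in knockdown tumors, overlapped, and the part of these cells in the *Dlx3* values was not tested.

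Of the 4 Iroquois genes, *Irx2* fell. *Irx2* (chromosome 13, 72628820 to 72634198), which acts in heart and neural patterning, ran from 61.6 to 204 normalized counts in CTL tumors with a median of 127 and from 22.5 to 56.2 in knockdown tumors with a median of 35.5. Every knockdown tumor was below every CTL tumor, with a log2 fold change of -1.74 (SE 0.27, adjusted p = 0.000132). Its neighbor *Irx1*, 665096 bases away, was low and scattered in both groups (2.84 to 38.9 and 5.04 to 27.1 normalized counts; -0.35, adjusted p = 0.675). *Irx3*, the most abundant Iroquois gene per kilobase of exon, ran from 2056 through a median of 2723 to 3303 in CTL tumors and from 1539 through 1968 to 2183 in knockdown tumors. It did not reach the fold threshold (log2 fold change -0.44, SE 0.11, adjusted p = 0.00659). *Irx5*, which lies beside it on chromosome 8, was at -0.21 (adjusted p = 0.0958). The median abundant gene of chromosome 8 lay at a log2 fold change of -0.19, and with that shift removed *Irx3* lay at -0.24 (adjusted p = 0.0857) and *Irx5* at -0.01 (adjusted p = 0.935). The antisense gene *Irx3os* also had values and overlaps *Irx3*.

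*Lhx6* rose. *Lhx6*, a LIM-homeobox gene of forebrain interneurons and of tooth mesenchyme and the more abundant of the 2 Lhx genes with values, ran from 38.9 to 68.7 normalized counts in CTL tumors with a median of 45.6. In knockdown tumors it ran from 77.4 to 113 with a median of 104. The groups did not overlap, and the log2 fold change was 1.03 (SE 0.16, limma adjusted p = 0.000132), just over the fold threshold. Without CTL replicate 4 it was 0.98 (adjusted p = 0.000412) and without knockdown replicate 1 it was 0.998 (adjusted p = 0.000276), so either tumor decided its call and not its direction. *Lhx2*, a gene of forebrain and hair follicle, ran from 11.4 to 24.9 and from 5.04 to 31.2 normalized counts (-0.24, adjusted p = 0.645).

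*Pitx1*, a homeobox gene of the hindlimb, ran from 4.86 through a median of 9.73 to 18.9 normalized counts across CTL tumors and from 6.05 through 17.6 to 27.1 in knockdown tumors. It was not called (0.69, adjusted p = 0.172).

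Per kilobase of exon, *Sox4*, *Irx3*, *Sox9* and *Irx5* were the most abundant members in both groups, and none of these was called. *Sox4* had 1064 normalized counts per kilobase in CTL tumors and 839 in knockdown tumors, *Irx3* 961 and 701, and *Sox9* 834 and 762. *Irx5*, *Pax9* and *Sox13* followed, between 190.2 and 326 in either group. The called members that rose were low throughout, from 0.393 to 10.1 normalized counts per kilobase in CTL tumors.

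**Figure D3:**
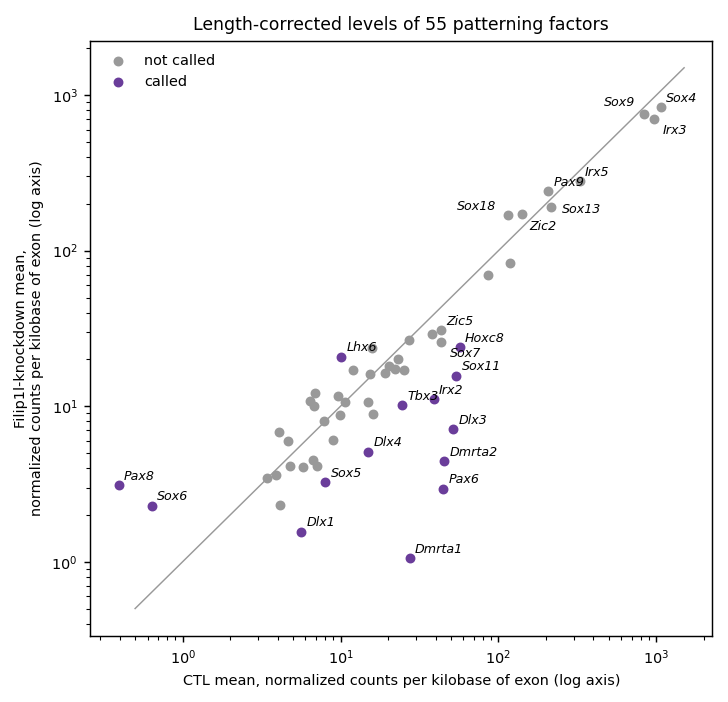
Mean normalized count per kilobase of exon of the 55 members in CTL tumors (horizontal, log axis) and *Filip1l*-knockdown tumors (vertical, log axis), with called members in purple and a line of equal levels. The abundant *Sox4*, *Irx3* and *Sox9* lie near the line, and *Pax6* and *Dmrta1* lie far below it.

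The Sox family had 11 members with values, and its subgroups did not move as units. In subgroup C, whose members act in progenitors of neurons and mesenchyme, *Sox11* fell while *Sox4* and *Sox12* were not called. *Sox11* (chromosome 12, 27334264 to 27342574, - strand) ran from 277 to 608 normalized counts in CTL tumors with a median of 469 and from 91.7 to 171 in knockdown tumors with a median of 130.1. The groups did not overlap (log2 fold change -1.75, SE 0.19, limma adjusted p = 7.38e-06). *Sox4*, the most abundant of all members, ran from 3331 through a median of 5278 to 6142 in CTL tumors and from 3279 through 3734 to 5131 in knockdown tumors, at -0.34 (adjusted p = 0.0691). *Sox12* ran from 83.3 to 193 and from 74.4 to 167 (-0.04, adjusted p = 0.902). Measured within tumors, the log2 ratio of *Sox11* to *Sox4* was -3.53 in CTL and -4.95 in knockdown tumors, a difference of -1.42. The ratio of *Sox11* to *Sox12* differed by -1.71. Both differences passed the exact permutation test (adjusted p = 0.00974 and 0.0195).

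In subgroup D, whose members act together in cartilage, *Sox5* fell and *Sox6* rose. *Sox5* (chromosome 6, 143828425 to 144781977) ran from 104 to 132 normalized counts in CTL tumors with a median of 112 and from 31.4 to 75.1 in knockdown tumors with a median of 44.6. *Sox6* (chromosome 7, 115470872 to 116038796) ran from 2.00 to 13 with a median of 11 in CTL tumors and from 14 to 88.7 with a median of 26.6 in knockdown tumors. Neither gene overlapped between groups. Their log2 fold changes were -1.34 (SE 0.20, limma adjusted p = 9.11e-05) and 1.61 (SE 0.47, limma adjusted p = 0.0134), and the ratio of *Sox5* to *Sox6* differed by -2.95 on the log2 scale (exact permutation test, adjusted p = 0.00974). *Sox13*, the most abundant gene of this subgroup per kilobase of exon, ran from 860 through a median of 929 to 1009 in CTL tumors and from 748 through 827 to 895 in knockdown tumors (-0.19, adjusted p = 0.0242). *Sox6* also acts in the fibers of skeletal muscle, and markers of that tissue differed between the groups as well. The 8 skeletal muscle markers, such as *Acta1* and *Ckm*, summed to 2542 to 13085 normalized counts in CTL tumors and to 5469.8 to 94402 in knockdown tumors. All 8 estimates were higher in knockdown tumors, and 7 of the 8 were called. Knockdown replicate 3 had both the highest *Sox6* value and the highest sum of muscle markers. Relative to the muscle sum *Sox6* differed by -0.34 between groups (exact permutation test, adjusted p = 0.584 over 4 such ratios to marker sums, chosen after seeing the data). This log2 ratio varied widely between tumors (SD 1.28 in CTL and 0.83 in knockdown tumors), so the test could miss a large difference. Whether muscle content set the *Sox6* values was not tested. Antisense genes overlap *Sox5* and *Sox6*.

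Subgroup F, the Sox genes of endothelium, split in direction. *Sox18*, the most abundant of them per kilobase of exon, ran from 151 through a median of 194 to 214 normalized counts across CTL tumors and from 226 through 269 to 334 in knockdown tumors. Its groups did not overlap, but its log2 fold change of 0.55 (SE 0.12, limma adjusted p = 0.00268) was under the fold threshold. *Sox17*, with 32.6 ± 6.72 and 47.7 ± 9.52 normalized counts (SD, n = 6 each), was at 0.54 (adjusted p = 0.0359). *Sox7* ran from 115 to 164 in CTL tumors and from 66.6 to 99.1 in knockdown tumors, at -0.73 (SE 0.14, adjusted p = 0.000834). The ratio of *Sox17* to *Sox7* was thus 1.27 higher and that of *Sox18* to *Sox7* 1.28 higher in knockdown tumors on the log2 scale (exact permutation test, adjusted p = 0.00974 each). The 8 markers of blood endothelium, such as *Pecam1* and *Cdh5*, summed to 2846 to 3659 normalized counts across CTL tumors and 3608 to 5826 in knockdown tumors (exact permutation p = 0.00433, not adjusted over the marker lists). Relative to this sum *Sox17* and *Sox18* differed by 0.09 and 0.10 (exact permutation test, adjusted p = 0.584 and 0.571) and *Sox7* by -1.19 (adjusted p = 0.00866). *Sox7* lies on chromosome 14, and with the shift of that chromosome removed it passed the fold threshold at -1.11 (adjusted p = 2.60e-05).

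**Figure D4:**
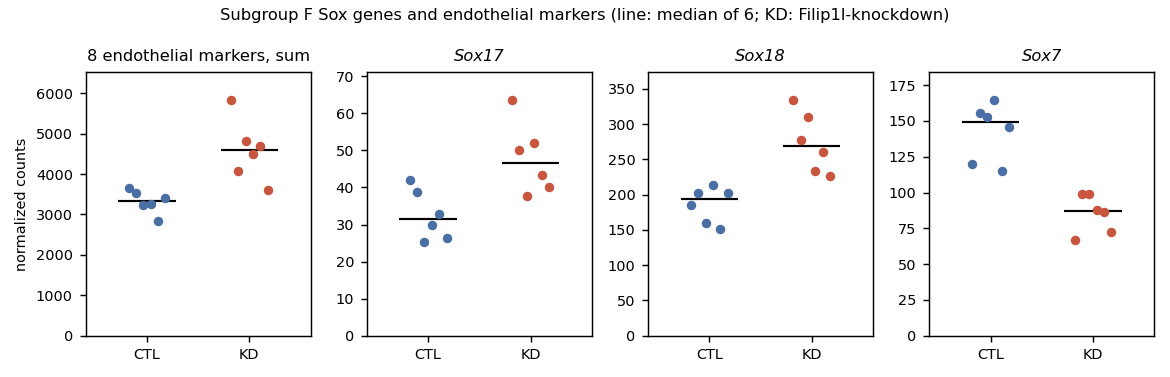
Summed normalized counts of 8 endothelial markers (left) and normalized counts of *Sox17*, *Sox18* and *Sox7* in each tumor, with CTL and *Filip1l*-knockdown (KD) tumors side by side and a line at the median of 6. The marker sum, *Sox17* and *Sox18* lie higher in knockdown tumors, and *Sox7* lies lower, with a highest knockdown value of 99.1 against a lowest CTL value of 115.

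The remaining Sox genes were not called. *Sox9*, the gene of subgroup E that directs cartilage and marks lung progenitors, ran from 3058 through a median of 3384 to 3907 normalized counts across CTL tumors and from 2371 through 3356 to 3558 in knockdown tumors (-0.14, SE 0.10, adjusted p = 0.274). *Sox21*, a subgroup B repressor found in airway epithelium, ran from 28 through 41.3 to 71.8 and from 49.8 through 57.2 to 86.4 (0.56, SE 0.26, adjusted p = 0.0956). *Sox21* also lies on chromosome 14, and with its shift removed the log2 fold change was 0.18 (adjusted p = 0.620). The 6 markers of simple epithelium, such as *Epcam* and *Krt8*, summed to 135400 to 176029 normalized counts across CTL tumors and 189079 to 352751 in knockdown tumors. All 6 estimates were higher and 4 were called, and whether the Sox genes followed epithelial content was not tested.

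Hox genes were the largest family. Of 18 with values 1 was called (5.56%, beside 10.2% of all genes), with a median log2 fold change of -0.06. That gene was *Hoxc8*, which patterns the thoracic region and was the most abundant Hox gene per kilobase of exon. It ran from 127 to 202 normalized counts in CTL tumors with a median of 157 and from 47.0 to 86.6 in knockdown tumors with a median of 72.8. Every knockdown tumor was lower, with a log2 fold change of -1.25 (SE 0.17, limma adjusted p = 6.06e-05). Its neighbors on chromosome 15 differed less. *Hoxc6* had 60.8 ± 6.96 and 41.0 ± 11.2 normalized counts (SD, n = 6 each; -0.59, adjusted p = 0.0211), and *Hoxc9* had 46.7 ± 26.2 and 39.6 ± 14.2 (-0.12, adjusted p = 0.832). The ratio of *Hoxc6* to *Hoxc8* was 0.66 higher in knockdown tumors on the log2 scale and that of *Hoxc8* to *Hoxc9* differed by -1.13 (exact permutation test, adjusted p = 0.0213 and 0.0195). The annotated span of *Hoxc5* covers *Hoxc6*, *Hoxc8* and *Hoxc9* and part of *Hoxc10*, so reads shared by these genes may have been split or left out. The other difference among the 14 linked Hox pairs that passed was that of *Hoxc4* to *Hoxc5* (0.85 higher, adjusted p = 0.0292), which rose to as much as 0.0584 without CTL replicate 2, 3 or 5.

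The other Hox genes were low and varied between tumors of the same group. *Hoxd8*, the most abundant of cluster D, ran from 77.7 through a median of 90.9 to 142 normalized counts across CTL tumors and from 57.9 through 73.6 to 105 in knockdown tumors (-0.36, adjusted p = 0.147). *Hoxb7*, the most abundant of cluster B, ran from 13 through 24.1 to 36.9 and from 26.1 through 34.3 to 46.9 (0.59, adjusted p = 0.0886). *Hoxa7*, of cluster A, ran from 18.9 through 24.7 to 41.0 and from 17.7 through 23.0 to 69.6 (0.14, adjusted p = 0.792), and its sign changed without knockdown replicate 1 (-0.11) or replicate 3 (-0.01). *Hoxa3*, *Hoxa5*, *Hoxb2*, *Hoxb3*, *Hoxb4*, *Hoxb6*, *Hoxb8*, *Hoxb9*, *Hoxc4*, *Hoxc5*, *Hoxc10* and *Hoxd9* were not called either, with log2 fold changes from -0.59 to 0.74. Knockdown replicate 1 had the highest knockdown value of 9 of the 18 Hox genes, and knockdown replicate 3 had that of 7. The 8 fibroblast markers, whose sum is mostly collagen, summed to 159322 to 258850 normalized counts across CTL tumors and to 74816 to 251716 in knockdown tumors, and knockdown replicate 1 had the highest knockdown sum. The members of this list did not go one way, with 5 estimates lower and 3 higher. *Col1a1* and *Col1a2* lay at -0.76 and -0.97 (adjusted p = 0.0108 and 0.00626), *Dpt* lay at 0.63 (adjusted p = 0.0320), and *Pi16*, the called gene, rose by 1.34 (adjusted p = 0.00886). Whether that content set the Hox levels was not tested.

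**Figure D5:**
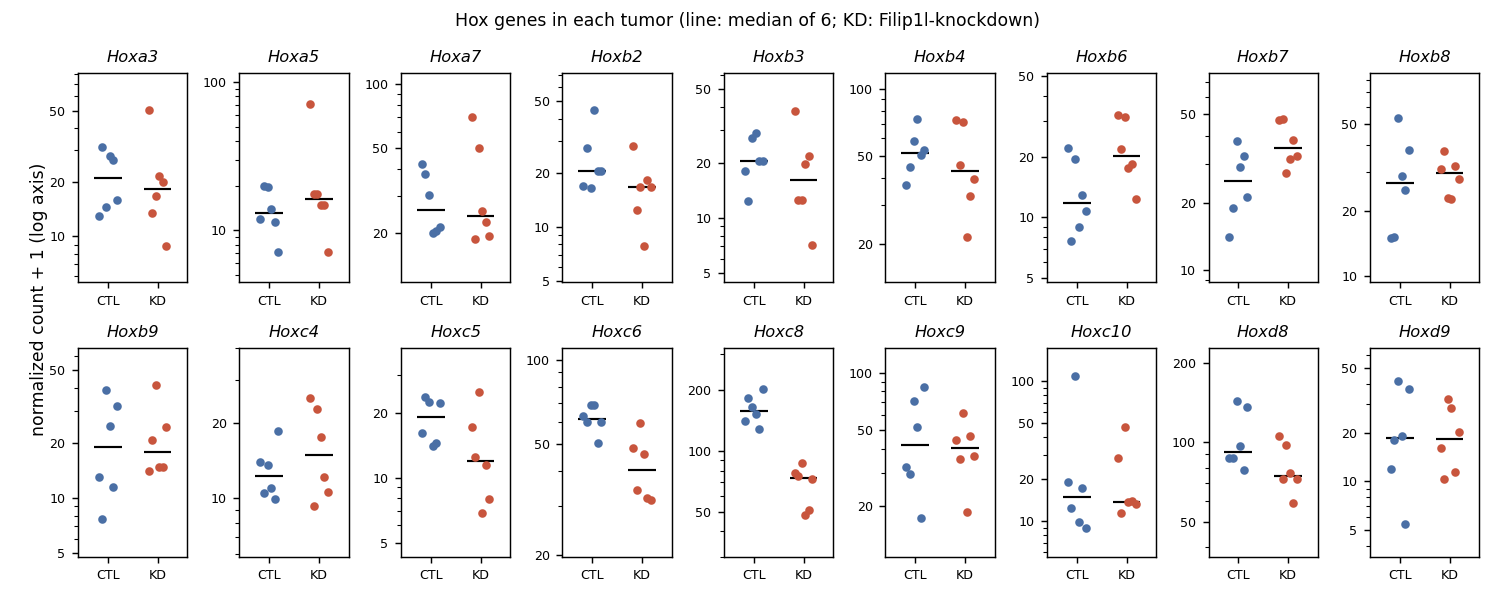
Normalized count plus 1 of the 18 Hox genes in each tumor (log axis), with CTL tumors on the left and *Filip1l*-knockdown tumors (KD) on the right of each panel and a line at the median of 6. The groups overlap in every panel except that of *Hoxc8*.

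Among 6 T-box genes *Tbx3* fell. *Tbx3* (chromosome 5, 119670669 to 119684724) encodes a repressor of transcription that acts in limb, heart and mammary development. It ran from 83.7 to 235 normalized counts in CTL tumors with a median of 161. In knockdown tumors it ran from 54.8 to 78.7 with a median of 66.9. The log2 fold change was -1.17 (SE 0.24, limma adjusted p = 0.00115), and the groups did not overlap, although the antisense gene *Tbx3os1* covers part of the gene. *Tbx15*, a gene of skin and limb mesenchyme and the most abundant T-box gene per kilobase of exon, ran from 208 through 337 to 388 in CTL tumors and from 209.8 through 255 to 338 in knockdown tumors (-0.28, adjusted p = 0.163). *Tbx18*, a gene of epicardium and ureter mesenchyme, was at -0.75 (adjusted p = 0.0670) and *Tbx2* at -0.28 (adjusted p = 0.517). *Tbx1*, a pharyngeal gene, ran from 2.99 to 39.0 and from 1.73 to 44.4, too scattered to separate the groups (-1.13, adjusted p = 0.232). *Tbx21*, the T-bet gene of T and NK cells, was at 0.01 (adjusted p = 0.985), and the 7 T and NK cell markers summed to 776 to 2007 normalized counts across CTL tumors and 750.0 to 1572 in knockdown tumors. *Msx1*, a craniofacial gene and the Msx gene with values, ran from 50.8 through 60.1 to 116 and from 40.1 through 48.6 to 89.8 (-0.34, adjusted p = 0.275).

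Neither of the sine oculis genes *Six4* and *Six5* was called. *Six5*, next to the myotonic dystrophy gene *Dmpk* and the more abundant of the pair per kilobase of exon, ran from 314 through a median of 361 to 399 normalized counts across CTL tumors and from 213 through 249 to 293 in knockdown tumors. Its groups did not overlap, at a log2 fold change of -0.52 (SE 0.09, limma adjusted p = 0.000369). *Six4* had 44.6 ± 13.5 and 25.2 ± 17.1 normalized counts (SD, n = 6 each), at -0.96 (adjusted p = 0.0443), and it passed the fold threshold when CTL replicate 4 (-1.09) or 6 (-1.05) or knockdown replicate 1 (-1.23) or 3 (-1.03) was left out.

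Cofactors and upstream regulators of these families were read from 7 lists with 103 genes, of which 86 had values. By the same rule 14 were called (16.3%, beside 10.2% of all genes), 4 higher and 10 lower. These lists too were chosen with earlier results of these data known, so their shares are no measure of an excess. Of the 9 Pbx, Meis and Pknox genes, which bind DNA with Hox proteins, 3 had an adjusted p under 0.05 (beside 41.9% of all genes) with a change under the fold threshold, and the median log2 fold change was -0.06. Of 25 Polycomb and trithorax genes, which keep Hox and other patterning genes silent or active, 15 had an adjusted p under 0.05, 13 of them lower, where 41.9% of all genes had one, and *Cbx6*, a reader of the Polycomb mark, was called, with 4307 ± 166 and 1899 ± 307 normalized counts (SD, n = 6 each; -1.20, adjusted p = 3.56e-07). *Eya1*, a phosphatase and partner of the sine oculis proteins, had 33.8 ± 7.45 and 9.76 ± 2.74 normalized counts (-1.70, adjusted p = 0.000101), and it was the called gene among 5 partners of these proteins. *Tle2* was the called gene among 6 Groucho corepressors (-1.01, adjusted p = 0.000279), and its change was under the fold threshold without CTL replicate 1, 3 or 6 or knockdown replicate 2, with -0.85 without the last. Of the 5 LIM cofactors 1 had an adjusted p under 0.05, again under the fold threshold.

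Of 15 genes of retinoic acid, a signal that sets Hox expression, 4 were called (26.7%, beside 10.2% of all genes). *Aldh1a3*, which makes retinoic acid, rose by 1.13, from an average of 8322 ± 1386 (SD, n = 6 here and below) to 18075 ± 1744 normalized counts (limma adjusted p = 2.33e-06). *Aldh1a2*, another enzyme of this step, fell by 2.18, with 141 to 1098 normalized counts across CTL tumors and 42.8 to 263 in knockdown tumors (adjusted p = 0.00220). *Crabp1*, a binding protein, was at -1.26 (adjusted p = 0.0425), a call that was lost in 8 of 12 fits that left out 1 tumor, with adjusted p up to 0.0880. *Cyp26b1*, which degrades retinoic acid, was at 1.10 (adjusted p = 0.00259), with 0.95 without CTL replicate 2 and 0.99 without knockdown replicate 2. Of 21 other homeobox factors 7 were called (33.3%, beside 10.2% of all genes), and 1 of them, *Hhex* on chromosome 19, named after its values were seen, went from -1.05 to -0.69 with the shift of its chromosome removed. *Prox1*, a gene of lymphatic endothelium and endoderm, fell by 2.88 from 377 ± 103 to 58.8 ± 42.4 normalized counts (adjusted p = 2.30e-05). The other lymphatic endothelium markers, *Lyve1*, *Pdpn* and *Flt4*, were not called. They lay at 0.08, 0.11 and -0.37 (limma adjusted p = 0.871, 0.715 and 0.227), and the part of lymphatic cells in the *Prox1* values was not tested. *Pdx1*, the gene of pancreas and duodenum, fell by 2.28 from 1219 ± 227 to 248 ± 33.7 (adjusted p = 5.17e-08). *Prrx2*, a mesenchymal gene, fell by 2.01 (adjusted p = 8.07e-07), and *Cdx2*, the gene of intestinal identity, rose by 2.15 from 259 ± 48.0 to 1155 ± 218 (adjusted p = 1.24e-07).

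The nearest genes with values on each side of a member along the chromosome were also read. Genes without values or overlapping the member were passed over, so some neighbors were distant, such as *Gm12669* at 2110774 bases from *Dmrta1*. Of the 23 nearest neighbors of called members that are themselves no member, 2 were called (8.70%, beside 10.2% of all genes). They were named after their values were seen. *Gm12610*, 215948 bases from *Dmrta1*, had means of 27.1 and 1.16 normalized counts (limma adjusted p = 3.14e-05), and *Bcat1*, 211857 bases from *Sox5*, was at -1.03 (adjusted p = 0.00107). The remaining neighbors were not called. Among them *Rcn1*, 269580 bases from *Pax6*, lay just under the fold threshold at -0.99 (adjusted p = 3.31e-05), and *Psd4*, 5605 bases from *Pax8*, lay at 0.66 (adjusted p = 6.15e-05).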

How the data were processed

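The authors made poly(A)-enriched libraries with an NEBNext Ultra II kit, trimmed reads with Trimmomatic 0.36, aligned them with STAR 2.5.2b and counted unique hits per gene with featureCounts of Subread 1.5.2 (mm10 in the submitters' processing notes). The deposited values are a signal, gene counts divided by the DESeq2 size factor of each tumor, with replicates not pooled. Divided by the smallest step of its tumor, 100.0% of values were whole within 0.1 read, a check that says less for tumors whose size factor lies near 1. Without molecular identifiers, depths and floors describe counting error alone.

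Members and gene lists were chosen with earlier results of these data known. A few genes with matching symbols or roles are not reported here and were left out of the counts of members and lists. Identifiers were matched to GENCODE vM21 (99.8% found), the source of exon lengths. Groups were compared without covariates by limma 3.58.1 in R 4.3.3 (variance trend, log2 of the value plus a pseudocount of 1, Benjamini-Hochberg adjustment), since size-factor normalized values are no raw counts. Removing genes with a mean under 5 normalized counts took out 0 genes. Log2 ratios within a tumor, for 27 pairs of members (linked within 2 megabases or of 1 Sox subgroup) and 4 ratios to marker sums, were compared by exact two-sided permutation tests over all 924 arrangements, whose smallest p is 0.00216. The ratios and edgeR 4.0.16 on recovered reads were added after seeing the data.

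Values are given for every called member and for the member of each family, Hox cluster or Sox subgroup with the highest mean per kilobase of exon, and at most 4 called genes of a cofactor list are named. Alternatives were other pseudocounts, filters, scalings and fits, removal of chromosome medians, a replicate block, calls on adjusted p alone and each tumor left out in turn. Steps were tested on simulated data. Promoter sequences were those of RefSeq (GRCm38.p6), where 32 of the 55 members had a window. Plots used matplotlib 3.10.9 under Python 3.11.15.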

Additional observations from a re-analysis of the deposited data

Results flagged for a closer look

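In 11 of 82 groups of 6 tumors, 1 tumor lay far from the other 5 by Dixon's test at 95%, computed on normalized counts and not on their logarithms. Chance alone gives this in about 1 of 20 groups of normally distributed values. Such counts need not be so distributed, and the number of flagged groups is therefore no measure of an excess. Among patterning factors, knockdown replicate 1 was the highest knockdown tumor in *Dmrta2* (31.3 normalized counts, next 13.7), *Pax6* (88.7, next 35.5) and *Msx1* (89.8, next 53.1). CTL replicate 4 was the highest CTL tumor in *Msx1* (116, next 70.1). *Lhx6* was highest in CTL replicate 5 (68.7, next 49.4). *Sox6* had 88.7 normalized counts in knockdown replicate 3, with 32.3 next.

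Among the genes of the cofactor lists, *Aldh1a2* was highest in CTL replicate 4 (1098 normalized counts, next 426) and in knockdown replicate 1 (263, next 96.0). *Crabp1* was highest in CTL replicate 3 (339, next 118). *Pdx1* was lowest in knockdown replicate 5 (182, next 248), and *Tle2* in knockdown replicate 2 (101, next 182).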

How the results depend on the processing

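All 14 calls kept their direction wherever they could be fitted. Testing genes with a mean of at least 20 left 43 members, without *Dlx1* and *Pax8*. Of these members 12 were called (2 higher and 10 lower), beside 1380 of 14375 genes. On adjusted p under 0.05 alone 23 of the 55 members were called (5 higher and 18 lower), beside 41.9% of all genes. Of the 86 cofactor and regulator genes 44 were called in this way (10 higher and 34 lower). With chromosome medians removed *Sox7* was called as well and *Zic2* lay at -0.11. With CTL replicate 5 and knockdown replicate 1 out *Hoxa7* lay at -0.19, and with single tumors out it ran from -0.11 to 0.27. The causes were not tested. *Lhx6* was under the fold threshold with a pseudocount of 8 (0.94) or with tumors rescaled to the same total (0.99). Leaving out 1 tumor gave 14 to 15 called members (2 to 3 higher and 11 to 12 lower) and 12 to 15 called cofactor genes, and *Filip1l* stayed between -0.31 and -0.22 with an adjusted p from 0.00340 to 0.0258. After removal of group means, tumors with the same replicate number correlated at -0.269 to 0.0990, so the numbers were not taken as pairs, and the fit with a replicate block called the same 14 members. edgeR on recovered reads called them too. Depth limits low members most, since 26 of the 55 had a mean under 50 normalized counts.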

Other observations

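Markers of other cell types in these whole tumors were also read. All 6 neutrophil markers were called higher by limma, and their summed values ran from 305 to 380 normalized counts in CTL tumors against 767 to 1223 (exact permutation p = 0.00216, the smallest the test can give, not adjusted over the 15 lists). Schwann cell markers summed to 3179 to 4319 against 4204 to 6277 (2 of 5 called higher), and adipocyte markers to 188 to 389 against 398 to 746 (2 of 3 called higher). Macrophage markers overlapped, at 24105 to 32563 against 21650 to 61378.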
